A study of Mus musculus with 24 samples.

Results

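Collagen-rich and collagen-poor pancreatic tumours of the mouse were compared, with the libraries chosen by a measured value, their collagen RNA. For each of the 24 bulk RNA-seq libraries the raw counts of Col1a1, Col1a2 and Col3a1, the genes for the chains of type I and type III collagen, were summed and divided by the library total. The 8 libraries with the highest share were called collagen-rich and the 8 with the lowest collagen-poor, which put 16 of 24 libraries into the comparison and left 8 between. The classes were cut from measured values, so they are not groups of the study and carry no treatment, and the 3 genes that ranked the libraries are given as a description only.

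The study collected pancreatic tumours on day 24 from mice given PBS (buffered saline, the control), GEM, IGEL or LIGEL, with 6 libraries per group. The labels do not expand GEM, IGEL and LIGEL; the series title names losartan, which blocks the angiotensin receptor, and a nanocarrier for chemotherapy and immunotherapy. Strain, age and tumour cell line are not given in the labels, and neither is whether the 6 samples of a group were 6 animals, so the p-values speak to the spread among these libraries alone, which may be technical in part. The sample titles say muscle, while the tissue field says pancreatic tumour, and counts of skeletal muscle genes made up no more than 0.0408% of a library.

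Pancreatic cancer is known for desmoplasia, a dense stroma in which fibroblasts deposit fibrillar collagen and other matrix proteins around the tumour cells. Procollagen chains are hydroxylated and folded in the endoplasmic reticulum, exported, trimmed outside the cell and crosslinked by lysyl oxidases into fibrils. Fibroblasts that contract and make matrix (myofibroblasts) express smooth muscle actin, and transforming growth factor beta (TGF-beta) is a well-known signal for this state. In bulk tissue, fewer cells of a type and less RNA per cell cannot be told apart.

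The collagen share ran from 1.23% to 3.30% of counts in the collagen-rich libraries (median 1.56%) and from 0.241% to 0.787% in the collagen-poor ones (median 0.700%). The libraries nearest the 2 limits were PBS replicate 4 at 1.23% just inside the collagen-rich class and GEM replicate 6 at 1.17% just outside it, and LIGEL replicate 5 at 0.881% just outside the collagen-poor class and PBS replicate 3 at 0.787% just inside it. PBS replicate 1 had the highest share at 3.30%, followed by GEM replicate 4 at 2.21%, and the lowest shares were those of IGEL replicate 1 at 0.321% and PBS replicate 5 at 0.241%. No Wilson 95% interval of a share was wider than 0.0118 percentage points, which covers counting error only. The classes cut across the treatments. Collagen-rich libraries were 3 of PBS, 2 of GEM, 2 of IGEL and 1 of LIGEL, and collagen-poor libraries were 3 of PBS, 1 of GEM, 2 of IGEL and 2 of LIGEL. The median share was 1.01% for PBS, 1.11% for GEM, 1.08% for IGEL and 0.898% for LIGEL libraries, and PBS held both the highest and the lowest library of the series.

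**Figure D1:**
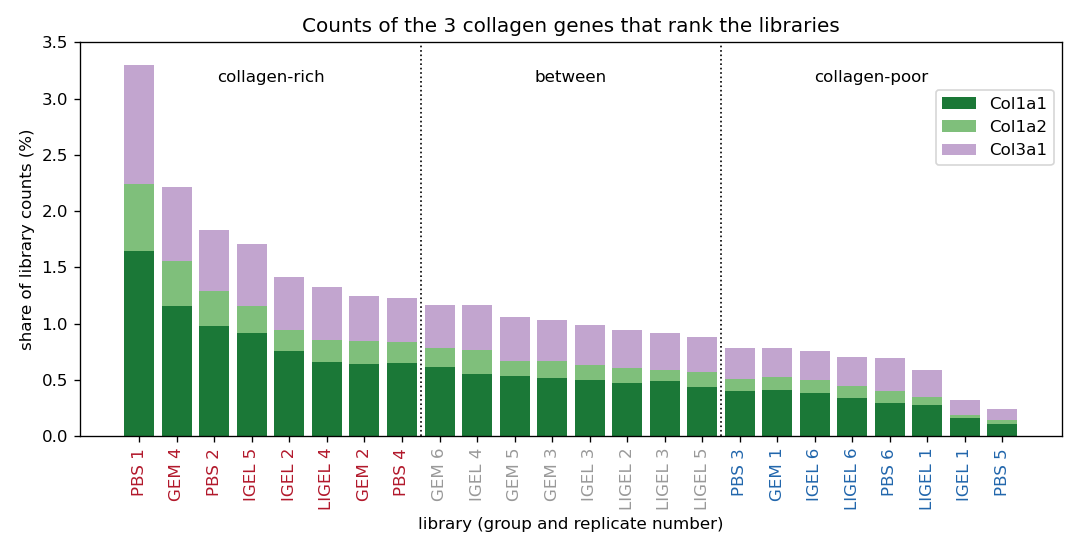
Share of library counts (%, vertical axis) taken by Col1a1, Col1a2 and Col3a1 (stacked bars) in the 24 libraries, ordered by their sum, with dotted lines at the limits of the 3 classes. The share falls from 3.30% in PBS replicate 1 to 0.241% in PBS replicate 5, with members of every treatment group on both sides.

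Library totals were 27.1 to 40.5 M counts (M, counts in units of 1e6). PBS replicate 5, in the collagen-poor class, stood apart: genes of acinar cells, which make the digestive enzymes of the normal pancreas, took 45.4% of its counts, and its total and scaling factor (0.497) were the lowest. Acinar genes took 0.426% to 8.80% of counts in the collagen-rich libraries (median 3.97%) and 0.00616% to 45.4% in the collagen-poor ones (median 0.246%). Count columns named A1, A2 or A3 in the deposited table, where the rest run from A7 on, hold 6 libraries: 1 collagen-rich, 3 collagen-poor and 2 between, none of them PBS. What these names mean is not given in the sources used here. Values from fits without PBS replicate 5 or without these columns therefore stand beside the results below; in the fit without the columns no gene was called, so only list medians are given from it.

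With treatment group as a covariate, 360 of 17809 tested genes (2.02%) were higher and 39 (0.219%) were lower in collagen-rich than in collagen-poor libraries (edgeR quasi-likelihood F test, Benjamini-Hochberg adjusted p under 0.05). At an unadjusted p under 0.05 there were 2010 higher and 1081 lower genes, and the median log2 fold change of all tested genes was -0.02. DESeq2 called 1175 of the 17809 genes higher and 514 lower at an adjusted p under 0.05. List counts below at an unadjusted p or by DESeq2 are to be set against these larger totals, and not against 2.02% and 0.219%. The size of the edgeR count rested on single libraries and on how columns A1 to A3 were handled. With all 16 libraries and a term for these columns, edgeR called 3 genes higher and 0 lower (1345 and 580 at an unadjusted p under 0.05). Without PBS replicate 5, 2846 of 18000 genes (15.8%) were higher and 1435 (7.97%) lower, and all 360 and all 39 genes were again called. Every list count below from the fit without that library is to be set against these 2 shares. Without the libraries of columns A1 to A3, edgeR called 0 genes in either direction, with 999 higher and 356 lower at an unadjusted p under 0.05 and a lowest adjusted p of 0.185; GEM then had no collagen-poor library. Without both, 217 genes (1.16%) were higher and 10 (0.0537%) lower, among them 92 of the 360 and 5 of the 39. Leaving out GEM replicate 1 or IGEL replicate 5 alone also gave 0 calls. All 360 and all 39 genes kept their sign whichever of the 16 libraries was left out, which is no independent support, since they were called in the same libraries.

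The 8 libraries between the classes entered no test. The median of their CPM (counts scaled to a library of 1e6 with TMM library factors) lay between the medians of the 2 classes for 355 of the 360 higher genes (98.6%) and 39 of the 39 lower genes (100%). Of all 17809 tested genes it did so for 10602 (59.5%). The 360 and 39 genes were called for a gap between the classes, and the libraries between are ordered by the same share. The higher shares are therefore a description and no support.

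The genes with the largest differences that were higher included regulators of Wnt signalling, matrix genes and an epithelial oxidase. Sfrp2, a secreted modulator of Wnt signalling made by fibroblasts (chr3:83766321-83774316, mm10, plus strand), had 14.8, 25.7 and 105 CPM (lowest, median and highest library) in the collagen-rich class, 4.96, 7.08 and 29.4 CPM between, and 0.421, 3.64 and 5.85 CPM in the collagen-poor class. No collagen-poor library reached the lowest collagen-rich one, and the log2 fold change was 3.48 ± 0.42 (SE, n = 8 and 8; edgeR adjusted p = 0.0146). Sfrp1, its relative, had 138, 230 and 648 CPM against 7.15, 65.7 and 81.9 CPM, again without overlap (log2 fold change 2.24 ± 0.47). Col8a2, a chain of the network-forming type VIII collagen, differed by 3.25 ± 0.58 on the log2 scale, with 9.54, 17.1 and 65.9 CPM against 0.148, 2.36 and 7.75 CPM. Thbs4, a matricellular thrombospondin, differed by 2.81 ± 0.64, and Lama1, a laminin chain, by 2.40 ± 0.49. H19, an imprinted long noncoding RNA, had 10.2 to 101 CPM in the collagen-rich class and 1.02 to 8.79 CPM in the collagen-poor class, and Unc5c, a netrin receptor, had 2.19 to 11 CPM against 0.148 to 1.63 CPM. The classes did not overlap for any of these 7 genes. Genes named here and below were mostly picked by the size or p of their difference, so a lack of overlap is a description only. How many of all tested genes lack overlap was not counted. Nkx3-2, a homeobox transcription factor (log2 fold change 2.48 ± 0.46), and Ubd, a ubiquitin-like protein induced by cytokines (2.64 ± 0.63), did not overlap either, at medians of 2.32 and 2.38 CPM in the collagen-rich class. Duox2, an epithelial oxidase (2.97 ± 0.71), and Cfi, a complement regulator (2.53 ± 0.56), were higher with overlapping classes.

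**Figure D2:**
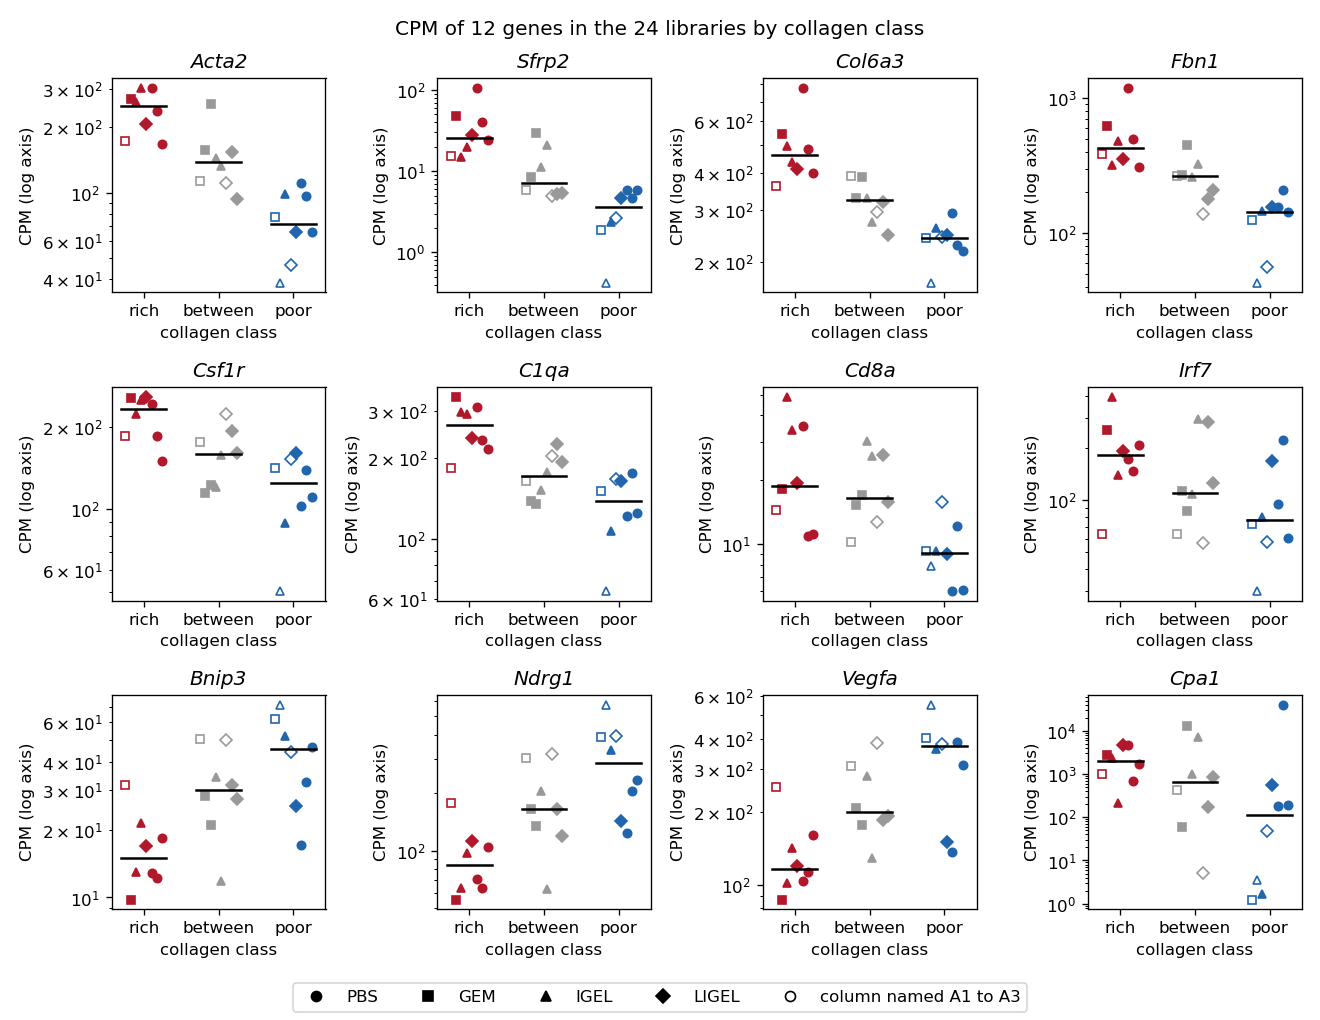
CPM on a log axis (vertical) of 12 genes in the 24 libraries, by collagen class (horizontal); symbols give the treatment group, open symbols the columns named A1 to A3, and the bar is the class median. Acta2, Sfrp2, Col6a3, Fbn1 and C1qa show no overlap between the collagen-rich and collagen-poor classes, whereas Bnip3, Ndrg1 and Vegfa are higher in most collagen-poor libraries and Cpa1 spans 1.25 to 39717 CPM among the collagen-poor ones.

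Other collagens moved with the 3 genes of the ranking. Of 15 tested collagens of the fibrillar, fibril-associated, type VI and type VIII kinds, 6 were higher and 0 lower, where 2.02% and 0.219% of all tested genes were, and the median log2 fold change was 1.04 against -0.02 for all genes. At an unadjusted p under 0.05 edgeR gave 11 higher and 0 lower, and DESeq2 called 10 and 0. Col6a3, a chain of the microfibril-forming type VI collagen (chr1:90765923-90843971, mm10, minus strand), had 363, 461 and 777 CPM in the collagen-rich class and 170, 242 and 294 CPM in the collagen-poor class. The 2 ranges were separate, and the log2 fold change was 1.04 ± 0.16 (adjusted p = 0.0198). Col6a2 differed by 1.38 ± 0.27, with an overlap of the classes. Col5a2, which helps to start type I fibrils, averaged 434 ± 216 CPM (SD, n = 8) against 160 ± 43.8 CPM, and Col12a1, which sits on fibril surfaces, 428 ± 211 CPM against 153 ± 71.1 CPM. Col8a1 was higher by 1.95 ± 0.42. When PBS replicate 5 was left out, 11 of the 15 were higher and 1 lower (15.8% and 7.97% of all genes; median 1.22), and without columns A1 to A3 the median was 1.01.

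Matrix proteins that organise fibrils were higher as well. All 23 tested matricellular and elastic matrix genes had a positive log2 fold change (median 1.05), 8 of them called higher and 0 lower, and 16 called higher without PBS replicate 5. Fbn1, the main protein of elastic microfibrils (chr2:125300594-125507993, mm10, minus strand), had 309, 429 and 1180 CPM in collagen-rich libraries and 43.0, 144 and 208 CPM in collagen-poor ones, with no overlap (log2 fold change 1.96 ± 0.33, adjusted p = 0.0213). Its partners in the microfibril, Mfap5 (1.43 ± 0.31), Mfap2 (1.79 ± 0.43) and Ltbp2, a latent TGF-beta binding protein (1.51 ± 0.27), were also higher. So were the secreted glycoproteins Fstl1 (1.05 ± 0.20), Postn (1.40 ± 0.31), Fbln2 (1.27 ± 0.26) and Sparc, a collagen-binding protein (0.82 ± 0.18). Fn1, fibronectin, did not pass: it had 3024 to 5802 CPM in the collagen-rich class and 669.5 to 5330 CPM in the collagen-poor class, where the lowest value was that of PBS replicate 5 (log2 fold change 0.31 ± 0.34, adjusted p = 0.696).

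The small leucine-rich proteoglycans, which bind collagen fibrils and set their spacing, had a median log2 fold change of 1.65 over 10 genes, all positive. Of these, 2 were higher and 0 lower. Fmod (fibromodulin) had 13.9, 25.2 and 77.6 CPM against 0.495, 2.73 and 11.3 CPM (2.58 ± 0.60), and Bgn (biglycan) had 553, 775 and 1848 CPM against 98.7, 317 and 525 CPM (1.60 ± 0.31). Neither gene overlapped between classes. Dcn (decorin) and Lum (lumican) were not called with all 16 libraries (1.06 ± 0.64 and 1.53 ± 0.51, adjusted p = 0.423 and 0.136), and PBS replicate 5 held the highest value of its class for the list. Without that library 9 of 10 were called higher, Dcn at 1.98 and Lum at 2.06, and the median was 2.26.

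Enzymes that process collagen gave fewer calls. Of 23 genes for hydroxylation, folding, trimming and crosslinking, 3 were higher and 0 lower, with a median of 0.16. P4ha3, a subunit of prolyl 4-hydroxylase (chr7:100285520-100319699, mm10, plus strand), had 32.6, 72.2 and 101 CPM against 17.8, 29.7 and 44.4 CPM (1.30 ± 0.23). Loxl1, a lysyl oxidase that crosslinks elastic and collagen fibres, had 78.6, 130 and 298 CPM against 16, 56.8 and 65.9 CPM (1.55 ± 0.28), and Adamts2, which trims the amino end of procollagen, differed by 1.36 ± 0.29. Lox itself was not called (1.26 ± 0.35, adjusted p = 0.0782; 1.18, adjusted p = 0.0367, without PBS replicate 5). P4ha1, another catalytic subunit, averaged 183 ± 28 CPM against 265 ± 121 CPM (-0.45 ± 0.31, adjusted p = 0.497). Leaving out PBS replicate 5 gave the list 7 higher and 6 lower genes and a median of 0.01 (0.23 without columns A1 to A3), and P4ha1 was among the lower ones (-0.66, adjusted p = 0.00974), but with the acinar score as a covariate the P4ha1 difference turned to 0.69 (adjusted p = 0.0314). Of 10 genes for the export of procollagen from the endoplasmic reticulum 0 were called (edgeR; 0 higher and 2 lower at an unadjusted p under 0.05, 0 calls by DESeq2), with a median of -0.05. Omitting PBS replicate 5 gave 2 higher and 2 lower export genes, the coat protein gene Sec24d among the lower ones (-0.47, adjusted p = 0.0030).

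Matrix-degrading enzymes and collagen receptors gave few calls with 16 libraries. Among 18 proteases and their inhibitors 3 were higher and 0 lower (median 0.21): Adamts12 (1.62 ± 0.34), the stromelysin Mmp3 (0.94 ± 0.21) and Mmp23 (1.23 ± 0.30). Without PBS replicate 5 the list had 6 higher and 2 lower genes (median 0.08), where 15.8% and 7.97% of all genes were. Its median was 0.35 without columns A1 to A3. Of 9 collagen receptors edgeR called 0, with 5 higher and 0 lower at an unadjusted p under 0.05 and 4 higher by DESeq2 (median 0.51). Itga11, a collagen-binding integrin of fibroblasts, had 5.14, 7.98 and 29.8 CPM against 0.869, 2.60 and 6.40 CPM (1.65 ± 0.48, adjusted p = 0.0902). Itga11, Itga1 (1.13) and Itgb1 (0.85) were among 5 of the 9 called higher without PBS replicate 5. For the basement membrane, the sheet under epithelia and vessels, 1 of 15 genes was higher and 0 lower (median 0.21): Col15a1, with 279, 321 and 681 CPM against 77.2, 175 and 220 CPM (1.24 ± 0.23). It was among 4 higher genes without PBS replicate 5, beside 1 lower (median 0.23), set against the same 15.8% and 7.97% of all genes.

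Genes of contractile and general fibroblasts had positive medians, with a minority called among 16 libraries. Among 11 myofibroblast genes 3 were higher and 0 lower (median 0.96), where 2.02% and 0.219% of all tested genes were. Acta2, smooth muscle actin and the usual marker of this state (chr19:34241090-34255336, mm10, minus strand), had 168, 250 and 303 CPM in the collagen-rich class, 93.5, 139 and 257 CPM between, and 38.5, 71.5 and 111 CPM in the collagen-poor class. All 8 collagen-rich libraries lay above all 8 collagen-poor ones (1.66 ± 0.22, adjusted p = 0.0146). Myl9, a myosin light chain, was also higher (1.84 ± 0.43). Of the 11 genes 5 were higher without PBS replicate 5 (15.8% of all genes; median 0.73), and the median without columns A1 to A3 was 0.71. Of 14 general fibroblast genes 2 were higher and 0 lower (median 0.97), and 11 higher without PBS replicate 5 (median 1.18), with a median of 0.74 without columns A1 to A3. Thy1, a fibroblast surface marker, had 47.6, 68.0 and 121 CPM against 21.3, 35.3 and 39.6 CPM (1.16 ± 0.20), and Pdgfra, the receptor that marks fibroblasts, 39.4, 62.4 and 151 CPM against 24.1, 30.5 and 85.6 CPM (0.90 ± 0.28, adjusted p = 0.108). Pdgfrb (0.79 ± 0.21, adjusted p = 0.0678), Fap, a protease of activated fibroblasts (adjusted p = 0.117), and Prrx1 (0.68 ± 0.17, adjusted p = 0.0547) also did not pass with 16 libraries, and passed without PBS replicate 5. Pericyte and smooth muscle genes gave 2 higher of 12 (median 0.80), the contractile genes Mylk (0.83 ± 0.16) and Actg2 (1.39 ± 0.32). Their list had 6 higher without PBS replicate 5 (median 0.99), and a median of 0.43 without columns A1 to A3.

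Genes of inflammatory fibroblasts, a state marked by cytokines and chemokines, had no calls with 16 libraries: 0 of 14 were called by edgeR and by DESeq2, 3 higher and 1 lower had an unadjusted p under 0.05, and the median was -0.08. In the fit that omitted PBS replicate 5 the list split into 3 higher and 5 lower genes (median -0.27), for example Cxcl12, a chemokine (1.59, adjusted p = 0.0213), against Has1, a hyaluronan synthase (-1.02, adjusted p = 0.0125).

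For the signals around the fibroblast, the receptors of TGF-beta and some of its targets were higher, and the ligand did not pass. Of 18 genes of this pathway 4 were higher and 0 lower (median 0.11). Tgfbr2, the ligand-binding receptor, had 183, 204 and 370 CPM against 105, 133 and 158 CPM, and Tgfbr1, its signalling partner, 85.7, 106 and 146 CPM against 54.9, 71.1 and 81.0 CPM. Neither receptor overlapped between classes, with log2 fold changes of 0.77 ± 0.16 and 0.65 ± 0.12. Ctgf (also named Ccn2), a target that promotes matrix production, had 35.4, 50.2 and 85.7 CPM against 11.3, 21.4 and 31.4 CPM (1.19 ± 0.19), and Tgfbi, a matrix protein named for its induction, averaged 258 ± 58.3 CPM against 135 ± 59.8 CPM (1.05 ± 0.24). Tgfb1, the ligand, had 160, 277 and 334 CPM against 49.5, 356 and 420 CPM (-0.19 ± 0.31, adjusted p = 0.795), and its sign changed with the acinar covariate (0.86). Without PBS replicate 5 the list held 5 higher and 4 lower genes.

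In the hedgehog pathway, by which tumour epithelium signals to stroma, 0 of 9 genes were called by edgeR (3 higher and 1 lower at an unadjusted p under 0.05), with 1 higher and 1 lower by DESeq2 and a median of 0.28. In the fit that omitted PBS replicate 5, 4 of the 9 were higher and 1 lower (median 0.18). Gas1, a hedgehog co-receptor, had 16.9, 20.6 and 57.3 CPM against 5.87, 10.1 and 46.5 CPM (0.94 ± 0.37, adjusted p = 0.205; 1.38, adjusted p = 0.00431, without that library). Ptch1, the hedgehog receptor and a target of the pathway, ran the other way within narrow ranges, 31.2 to 44.0 CPM against 42.6 to 53.4 CPM (-0.34 ± 0.09, adjusted p = 0.0646; -0.35, adjusted p = 0.0141, without it). Of 7 tested renin-angiotensin genes 0 were called by either tool (0 at an unadjusted p under 0.05 by edgeR; median 0.23), and 3 were higher and 1 lower without PBS replicate 5 (median 0.52). Agtr1a, the angiotensin receptor that losartan blocks (chr13:30336441-30382867, mm10, plus strand), had 0.588, 1.28 and 5.35 CPM in the collagen-rich class and 0.166, 0.303 and 9.23 CPM in the collagen-poor class. The highest value was that of PBS replicate 5, and every other collagen-poor library lay below every collagen-rich one. The log2 fold change was 0.82 ± 0.78 (adjusted p = 0.641) with that library and 2.26 (adjusted p = 0.00723) without it, on 6 to 185 counts per library outside it. A separation read after setting that library aside is a description only. The sign of Agtr1a turned negative when the acinar score was added as a covariate to the 16 libraries. Agt, the hormone precursor, was not called with PBS replicate 5 (adjusted p = 0.381) and differed by 3.35 without it (adjusted p = 0.00708).

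**Figure D3:**
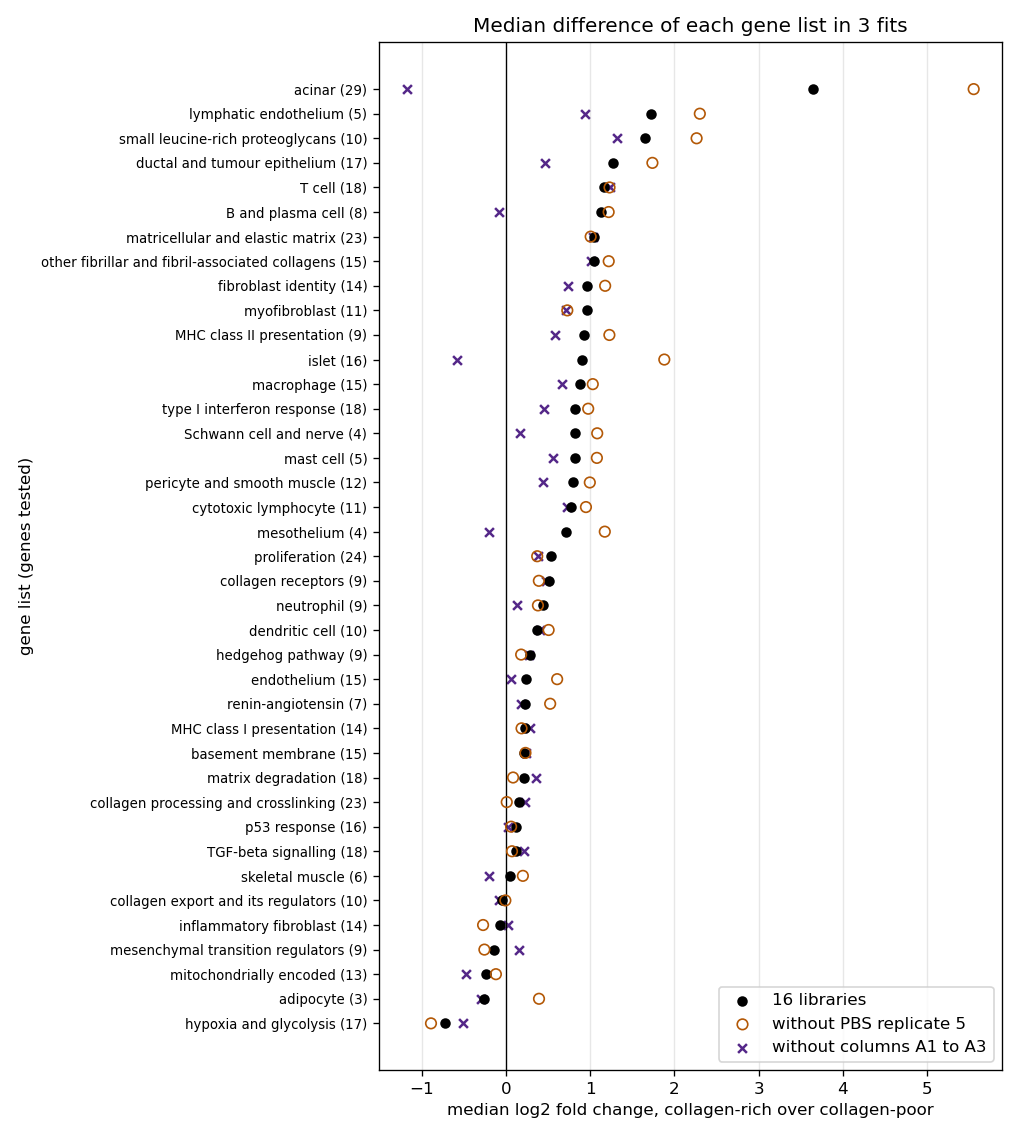
Median log2 fold change (horizontal axis, collagen-rich over collagen-poor) of each gene list (vertical axis, with the number of genes tested) for all 16 libraries (filled circles), without PBS replicate 5 (open circles) and without columns A1 to A3 (crosses). The hypoxia and glycolysis list lies at -0.73, -0.89 and -0.51 and the matricellular list between 1 and 1.05, while the acinar list moves from 3.65 to 5.56 and -1.18.

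Macrophage genes had more calls than any other immune list with 16 libraries, but fewer than T cell genes without PBS replicate 5 (8 of 15 against 14 of 18). With all 16 libraries 7 of 15 were higher and 0 lower (median 0.88). Csf1r, the receptor for the growth factor of macrophages, had 150, 232 and 257 CPM against 50.4, 125 and 160 CPM (0.97 ± 0.19, adjusted p = 0.0278). C1qa, a complement chain that tissue macrophages make, had 185, 266 and 340 CPM against 64.0, 138 and 177 CPM, without overlap (1.03 ± 0.20), and C1qb and C1qc differed by 0.96 ± 0.20 and 0.98 ± 0.19. Trem2, a lipid-sensing receptor of macrophages, had 13.1 to 46.6 CPM against 7.60 to 14.1 CPM (1.09 ± 0.20). Adgre1, which encodes F4/80, had 52.0 to 135 CPM against 12.1 to 58.7 CPM (1.22 ± 0.25). Arg1, an arginine-consuming enzyme of some tumour macrophages, averaged 84.2 ± 33.3 CPM against 135 ± 98.3 CPM (-0.84 ± 0.52, adjusted p = 0.439), and was lower without PBS replicate 5 (-1.03, adjusted p = 0.0187), where 8 of the 15 were higher. Neutrophil, dendritic and mast cell genes gave 0 calls of 9, 10 and 5 by edgeR, with 1, 3 and 0 higher and 0 lower at an unadjusted p under 0.05, and 1, 2 and 0 higher by DESeq2. Without PBS replicate 5 there were 1, 3 and 0 higher and 0 lower, where 15.8% and 7.97% of all genes were.

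T cell genes had positive log2 fold changes with a single call. All 18 had a positive log2 fold change (median 1.17), 17 had an unadjusted p under 0.05, and Cd8a alone was called; DESeq2 called 13. Cd8a, the co-receptor of cytotoxic T cells (chr6:71373427-71379173, mm10, plus strand), had 10.8, 18.7 and 49.0 CPM in collagen-rich libraries, 10.3, 16.3 and 30.4 CPM between, and 6.02, 9.09 and 15.7 CPM in collagen-poor ones. The classes overlapped, with the 2 collagen-rich IGEL libraries and PBS replicate 1 at the top (1.34 ± 0.32, adjusted p = 0.0470). Cd3e, a chain of the T cell receptor complex, had 1.84, 4.53 and 8.85 CPM against 1.20, 1.63 and 4.65 CPM (1.30 ± 0.41, adjusted p = 0.111; 1.51, adjusted p = 0.0148, without PBS replicate 5). The fit that omitted PBS replicate 5 called 14 of 18 higher and 0 lower, and without columns A1 to A3 the median was 1.24 with 0 calls. Of 11 cytotoxic lymphocyte genes 1 was higher, the chemokine Ccl5, with 7.87, 12.3 and 29.7 CPM against 3.46, 5.13 and 8.87 CPM (1.34 ± 0.31). This list had 5 higher and 1 lower gene without PBS replicate 5. Ptprc, which encodes CD45 on all leukocytes, had 70.6 to 185 CPM against 38.4 to 102 CPM (0.86 ± 0.22, adjusted p = 0.0575; 0.96, adjusted p = 0.00693, without PBS replicate 5). Cd274, the gene of the T cell inhibitor PD-L1, showed no difference that passed: 18.3 to 46.2 CPM against 14.8 to 33.4 CPM (0.04 ± 0.16, adjusted p = 0.933), and its sign changed between settings.

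Antigen presentation and interferon genes had positive medians with few calls. Of 9 MHC class II genes 1 was higher and all had a positive log2 fold change (median 0.93); the called gene was Ctss, the protease that clears the invariant chain (1.11 ± 0.24). Of these 9 genes 4 were higher without PBS replicate 5 (median 1.23), and the median was 0.58 without columns A1 to A3. The 18 type I interferon genes were all positive (median 0.82) with 10 at an unadjusted p under 0.05, but edgeR and DESeq2 called 0. Irf7, the transcription factor that amplifies the response, had 63.5, 182 and 397 CPM against 29.9, 76.5 and 223 CPM (1.11 ± 0.44, adjusted p = 0.205; 1.41, adjusted p = 0.0254, without PBS replicate 5). Omitting PBS replicate 5 left 8 of 18 called higher, and without columns A1 to A3 the median was 0.45. The 14 class I genes had a median of 0.22, with 0 calls by edgeR (6 higher and 0 lower at an unadjusted p under 0.05) and 2 higher by DESeq2. Without PBS replicate 5 edgeR called 3 of them higher, where 15.8% of all genes were.

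The lower genes included targets of the hypoxia response. Cells short of oxygen stabilise hypoxia-inducible factors, which raise glycolysis and the growth of vessels by binding to DNA with the core letters ACGTG. All 17 hypoxia and glycolysis genes had a negative log2 fold change, with a median of -0.73, and 4 were called lower, where 0.219% of all tested genes were: Ndrg1, Bnip3, Vegfa and Pdk1. Ndrg1, a stress-response gene (chr15:66929318-66969640, mm10, minus strand), had 55.6, 84.0 and 177 CPM in the collagen-rich class, 62.9, 164 and 318 CPM between, and 123, 284 and 571 CPM in the collagen-poor class (-1.65 ± 0.31, adjusted p = 0.0260). Vegfa, the growth factor of blood vessels, had 86.7, 116 and 253 CPM against 137, 372 and 551 CPM (-1.36 ± 0.29). The classes overlapped for both genes, and the highest collagen-rich value of each was that of GEM replicate 2, the 1 collagen-rich library from columns A1 to A3. Bnip3, a mitochondrial protein of the hypoxia response, had 9.79, 15 and 31.6 CPM against 17.1, 45.4 and 71.3 CPM (-1.39 ± 0.27), and Pdk1, a kinase that limits the use of pyruvate in mitochondria, 74.8, 99.5 and 138 CPM against 126, 183 and 238 CPM (-0.74 ± 0.16). DESeq2 called 6 of the 17 lower.

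Without PBS replicate 5, which had the lowest hypoxia level of the 24 libraries, 14 of the 17 were called lower (median -0.89). Slc2a1, the glucose transporter GLUT1, then differed by -1.36 (adjusted p = 0.00711), against -1.14 ± 0.46 (adjusted p = 0.213) with it. Egln3, an oxygen sensor that is itself induced by hypoxia, differed by -1.36 (adjusted p = 0.0121), against -1.12 ± 0.51 (adjusted p = 0.277). These 2 genes turned positive when the acinar score was added as a covariate to the 16 libraries (0.50 and 0.74), and the list's median was then 0.23, with 3 genes called lower and 0 higher. With the covariate and without PBS replicate 5 the median was -0.21 and 0 genes were called by edgeR. The part of acinar RNA in the hypoxia difference was not tested further. Without columns A1 to A3 the median was -0.51, with 0 calls.

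Other lower genes reached past this list. Depp1, a target of FOXO transcription factors, had 2.06, 3.52 and 4.36 CPM against 6.37, 9.42 and 17.4 CPM, without overlap (-1.68 ± 0.26). Vldlr, a lipoprotein receptor, differed by -1.38 ± 0.27, and Sars, a seryl-tRNA synthetase, by -0.74 ± 0.15. Flt1, the VEGF receptor 1, was the 1 called gene of 15 endothelial genes (-0.81 ± 0.19), while the list's median was 0.24 and Pecam1, the vessel marker CD31, had 52.6 to 119 CPM against 43.5 to 158 CPM (0.24 ± 0.27, adjusted p = 0.694; 0.56, adjusted p = 0.0203, without PBS replicate 5). The fit without PBS replicate 5 called 8 endothelial genes higher and Flt1 again lower (median 0.61), and the median was 0.06 without columns A1 to A3. Flt4, the receptor of lymphatic vessels, had 23.4, 31.5 and 44.5 CPM against 4.25, 12.9 and 32.0 CPM (1.18 ± 0.32, adjusted p = 0.0755; 1.38, adjusted p = 0.00581, without PBS replicate 5).

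As a description of the hypoxia genes outside expression, the 250 bases before each RefSeq start were searched for ACGTG on both strands. It occurred before 11 of the 16 tested hypoxia genes with a window (68.8%), before 8 of 24 genes called lower (33.3%), and before 2871 of 12025 tested genes (23.9%) and 4998 of all 27025 genes with a window (18.5%). Of the hypoxia genes called with 16 libraries, Bnip3 and Vegfa held a match, Pdk1 held none and Ndrg1 had no window. A match is a description and not a binding site. The list was made of hypoxia genes, whose factors bind these letters, so its higher share is no finding of these data. Shown are 3 such windows, of a gene called with 16 libraries and of 2 of those called only without PBS replicate 5, picked after their values were seen, from RefSeq on GRCm38.p6 (the assembly behind mm10), read 5′ to 3′ along the gene's strand: chr7:138909507-138909756 on the minus strand for Bnip3, chr4:119108495-119108744 on the plus strand for Slc2a1 and chr12:54203875-54204124 on the minus strand for Egln3. Capitals mark the motif; in Bnip3 the palindrome holds it on both strands.
Bnip3: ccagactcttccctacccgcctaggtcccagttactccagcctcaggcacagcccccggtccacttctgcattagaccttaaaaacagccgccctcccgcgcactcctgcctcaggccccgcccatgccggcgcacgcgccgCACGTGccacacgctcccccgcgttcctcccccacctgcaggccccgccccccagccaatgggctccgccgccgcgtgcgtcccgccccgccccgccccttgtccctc
Slc2a1: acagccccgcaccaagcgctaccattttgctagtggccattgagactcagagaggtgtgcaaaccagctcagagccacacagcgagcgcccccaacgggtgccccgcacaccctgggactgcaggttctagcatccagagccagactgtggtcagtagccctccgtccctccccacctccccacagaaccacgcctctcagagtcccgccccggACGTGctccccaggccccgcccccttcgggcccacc
Egln3: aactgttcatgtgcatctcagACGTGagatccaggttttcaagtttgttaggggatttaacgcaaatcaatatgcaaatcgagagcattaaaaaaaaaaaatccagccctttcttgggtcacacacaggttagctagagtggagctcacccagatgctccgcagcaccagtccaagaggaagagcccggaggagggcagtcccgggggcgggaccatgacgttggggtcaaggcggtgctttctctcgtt

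Tumour and pancreas epithelium varied widely in both classes. Of 17 ductal and tumour epithelial genes 0 were called by edgeR (median 1.27, 6 higher and 2 lower at an unadjusted p under 0.05), with 4 higher and 1 lower by DESeq2. The median was 1.74 without PBS replicate 5 and 0.46 without columns A1 to A3. Epcam, an epithelial surface marker, had 10.2, 22.4 and 132 CPM against 2.78, 5.64 and 62.5 CPM (1.40 ± 0.59, adjusted p = 0.238), and Cdh1, the adhesion protein E-cadherin, differed by 1.84 ± 0.67 (adjusted p = 0.167). Both passed without PBS replicate 5 (1.90, adjusted p = 0.0329, and 2.51, adjusted p = 0.0128). The keratins of simple epithelium did not pass with 16 libraries: Krt18 averaged 247 ± 72.3 CPM against 345 ± 80.7 CPM (-0.52 ± 0.20, adjusted p = 0.192) and Krt8 448 ± 83.1 CPM against 597 ± 178 CPM (-0.42 ± 0.22, adjusted p = 0.350), whose sign changed with the acinar covariate and with the replicate block (0.19 in each). Both keratins were, without PBS replicate 5, among 2 lower genes of the list, beside 7 higher. Cpa1, an acinar protease, had 211 to 4761 CPM in collagen-rich libraries and 1.25 to 39717 CPM in collagen-poor ones (3.85 ± 3.01, adjusted p = 0.555). Of 29 acinar genes edgeR and DESeq2 called 0 with 16 libraries (0 at an unadjusted p under 0.05 by edgeR), and edgeR called all 29 higher without PBS replicate 5 (median 5.56), while without columns A1 to A3 the median was -1.18. Without both PBS replicate 5 and these columns the acinar median was 4.01. Among these fits the negative median came from the 1 that lacked the columns and still held PBS replicate 5. The sign of the acinar median thus depended on which libraries were kept. With the acinar score as a covariate and without PBS replicate 5, edgeR called 0 of 18000 genes (495 higher and 299 lower at an unadjusted p under 0.05) and the medians were 0.91 for the matricellular, 1.27 for the collagen, 0.62 for the macrophage, 0.86 for the T cell and -0.37 for the interferon list.

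All 24 proliferation genes had a positive log2 fold change (median 0.53) with 16 libraries, but edgeR and DESeq2 called 0, and 1 had an unadjusted p under 0.05. Without PBS replicate 5 the median was 0.37, with 21 of 24 positive and 1 called higher, where 15.8% of all genes were. The median was 0.38 without columns A1 to A3 and 0.11 without both. Mki67, a marker of cycling cells, had 289, 396 and 698 CPM against 57.0, 232 and 454 CPM, the lowest being PBS replicate 5 (0.72 ± 0.33, adjusted p = 0.282; 0.53, adjusted p = 0.0352, without it).

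Because the classes cut across the treatments, the difference can be read inside each group. The collagen-poor libraries GEM replicate 1 (the only one of GEM), IGEL replicate 1 and LIGEL replicate 1 came from columns A1 to A3. Inside these groups class and column name therefore cannot be fully told apart, and PBS held no such column. For the mean log2 CPM of the matricellular list, collagen-rich minus collagen-poor was 1.19, 0.99, 1.48 and 1.13 in the order PBS, GEM, IGEL and LIGEL. For the other collagens the 4 differences were 1.38, 0.74, 1.22 and 1.10, for myofibroblast genes 0.99, 0.52, 0.71 and 0.81, and for macrophage genes 0.68, 0.55, 0.85 and 0.32. In these 4 lists every collagen-rich library of a group lay above every collagen-poor one of the same group. Apart from them, only the collagen receptor list did so in all groups (0.60, 0.21, 0.63 and 0.44). The small leucine-rich proteoglycan and fibroblast identity lists overlapped in PBS (1.46 and 0.62). GEM held 1 collagen-poor and LIGEL 1 collagen-rich library, where a lack of overlap is easily reached, so it is a description only. For hypoxia genes the differences were -0.24 in PBS, where the classes overlapped, then -1.18, -1.31 and -0.63 without overlap. T cell genes differed by 0.73, 0.96, 2.07 and 0.51, with an overlap in PBS and LIGEL. For MHC class II the difference was -0.03 in PBS and 3.12 in IGEL. Groups held 1 to 3 libraries per class, so no test was made inside them or between them.

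**Figure D4:**
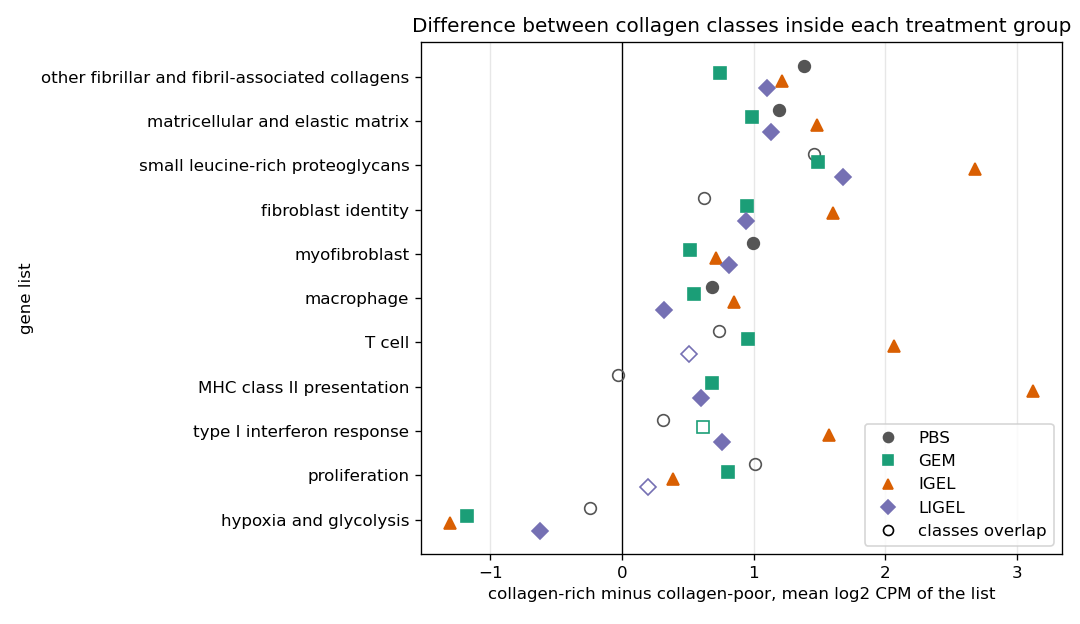
Difference in mean log2 CPM of each gene list (horizontal axis, collagen-rich minus collagen-poor) inside PBS, GEM, IGEL and LIGEL (symbols); open symbols mark groups whose classes overlap. The matricellular, other collagen, myofibroblast and macrophage lists are positive without overlap in all 4 groups. The small leucine-rich proteoglycan and fibroblast identity lists overlap in PBS. The hypoxia list is negative in all 4 groups with an overlap in PBS (-0.24).

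**Figure D5:**
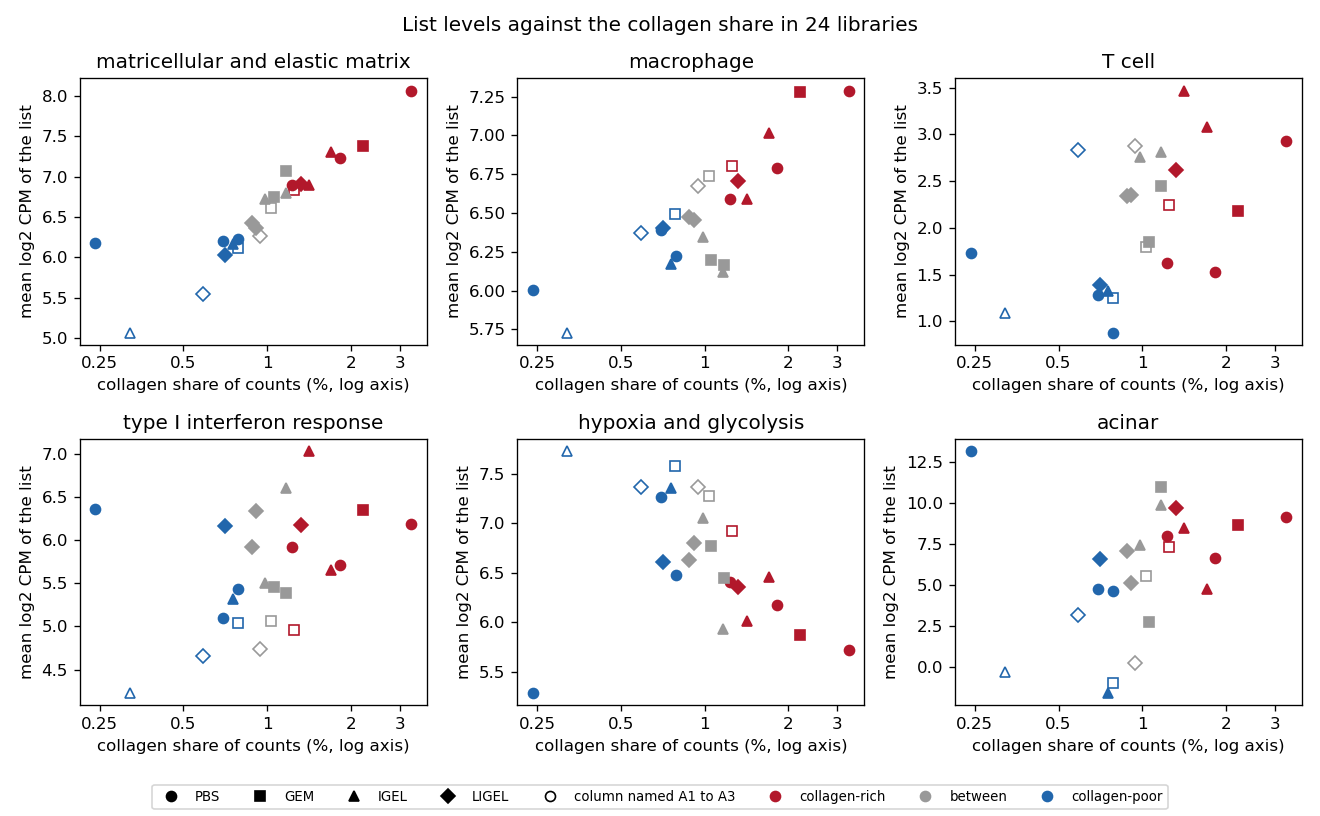
Mean log2 CPM of 6 gene lists (vertical axes) against the collagen share of counts (horizontal, log axis, %) in the 24 libraries; colours give the class, symbols the group and open symbols columns A1 to A3. The matricellular list mostly climbs with the share, from 5.07 in IGEL replicate 1 to 8.07 in PBS replicate 1, but PBS replicate 5, with the lowest share, is at 6.17. The hypoxia list mostly descends, but PBS replicate 5 is at 5.28, and the acinar list of that library, 13.2, is the highest of all.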

How the data were processed

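The authors deposited 1 table of raw read counts per gene for 24 libraries, with no normalization. HISAT2, featureCounts of Subread and the build mm10 are named in the submitters' processing notes; versions, strand and annotation are not given in the sources used here, so overlapping and antisense genes may share counts. Of 54532 gene identifiers 54409 are in GENCODE mouse release 21, 53499 of them with identical coordinates.

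The tests ran in R 4.3.3 with edgeR 4.0.16: filterByExpr over the classes (min.count 10, min.total.count 15; 0.107% of counts removed), TMM factors over the 24 libraries, and a robust quasi-likelihood F test of class with treatment group as covariate in 16 libraries, adjusted by Benjamini-Hochberg over 17809 genes without Col1a1, Col1a2 and Col3a1. The same test gives every adjusted p in the text unless DESeq2 1.42.0 or limma 3.58.1 is named. The prior count of log2 CPM is 2, and an SE is the absolute log2 fold change over the root of F. The fit was tested on simulated counts.

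The ranking genes and 39 lists (551 genes) were chosen with earlier results of these data known, so lists have counts and medians and no test. Named genes are the 15 largest called changes in each direction with at least 1 CPM (predicted genes aside), the 3 smallest p of each list and a fixed set of markers. Slc2a1, Egln3, P4ha1, Arg1, Cxcl12, Krt8, Krt18, C1qb, C1qc, Tgfbi, Fbln2, Mfap2, Col5a2, Col8a1 and Col12a1 were added after their values were seen where that rule did not hold them. Some genes that the rule names are not reported here. Alternatives covered scaling, filter, tool, covariates, class sizes, ranking and left-out libraries. Leaving out PBS replicate 5 together with columns A1 to A3, with the acinar covariate or with PBS replicate 1 was chosen after seeing the data.

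No 2 columns were identical. Same-numbered libraries of different groups deviated together (correlation above 0.1) in 14 of 36 pairs, so the numbers were not taken as pairs. Some numbers did share structure. GEM, IGEL and LIGEL replicate 1, the collagen-poor libraries of columns A1 to A3, correlated at 0.58 to 0.74, and each negatively with PBS replicate 1. For GEM, IGEL and LIGEL replicate 4 the values were 0.53 to 0.69.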

Additional observations from a re-analysis of the deposited data

Results flagged for a closer look

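Of 138 sets of 6 or 8 libraries examined for a sample far from its nearest neighbour, 24 were flagged, where chance flags about 1 in 20. The collagen share of GEM replicate 4, 2.21%, stood above the other GEM libraries, the next being 1.25%.

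PBS replicate 5 accounted for most flags in the collagen-poor class. It was the lowest library of that class for mean log2 CPM of collagen processing and crosslinking (5.72), TGF-beta signalling (5.13), MHC class I presentation (7.71), proliferation (4.28) and mesenchymal transition regulators (4.43), and for Mki67 (5.83). The same library was the highest for collagen export (6.24), small leucine-rich proteoglycans (5.17), renin-angiotensin (4.23), endothelium (6.06) and adipocyte genes (5.56), and for Agtr1a (3.22).

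In the collagen-rich class PBS replicate 1 was far above the rest for small leucine-rich proteoglycans (5.82), matricellular and elastic matrix (8.07) and fibroblast identity (4.98), and for Tgfbr2 (8.53) and Adgre1 (7.08). IGEL replicate 5 was low for islet genes (-0.89) and GEM replicate 2 for P4ha3 (5.03). Among collagen-poor libraries, PBS replicate 6 was high for neutrophil genes (2.64) and low for mast cell genes (-2.44), LIGEL replicate 1 was high for T cell genes (2.83) and IGEL replicate 1 low for Sfrp2 (-1.07).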

How the results depend on the processing

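Counts of called genes moved with nearly every choice. In the order higher and lower they were 912 and 17 without a composition factor (which moved the median of all genes to 0.06), 1175 and 514 with DESeq2, 3860 and 2355 with limma voom and quality weights, 366 and 18 without a filter, 453 and 81 without the group covariate, 907 and 1257 with the acinar covariate, 3 and 0 with a term for columns A1 to A3, 0 and 0 without those columns, 734 and 205 when libraries were ranked without acinar counts or by scaled CPM (6 of 8 collagen-rich and 8 of 8 collagen-poor libraries shared), 0 and 0 for 6 against 6 libraries (1537 and 710 at an unadjusted p under 0.05), 542 and 200 for 12 against 12, 1598 and 1117 for a slope over 24 libraries, 1028 and 293 for 3 classes, 217 and 10 without PBS replicate 5 and columns A1 to A3, 0 and 0 without PBS replicate 5 and with the acinar covariate, and 2656 and 1482 without PBS replicates 1 and 5. Scaling by RLE gave 325 and 46. Leaving out 1 library gave 0 to 2846 higher and 0 to 1435 lower genes: 0 and 0 without GEM replicate 1 (1592 and 781 at an unadjusted p under 0.05) or IGEL replicate 5 (1691 and 835), 20 and 2 without PBS replicate 1, 56 and 2 without IGEL replicate 2, 61 and 5 without GEM replicate 4, 88 and 4 without IGEL replicate 1, 88 and 5 without LIGEL replicate 4, 95 and 9 without IGEL replicate 6, 123 and 23 without PBS replicate 3, 146 and 12 without LIGEL replicate 1, 189 and 14 without PBS replicate 6, 204 and 18 without PBS replicate 2, 240 and 26 without LIGEL replicate 6, 517 and 71 without PBS replicate 4 and 2846 and 1435 without PBS replicate 5. Of the 360 higher and 39 lower genes, at least 358 and 38 kept their sign in each of these settings. The cause of these shifts was not tested. With the replicate number as a block the counts were 53 and 2, and same-numbered libraries deviated together in some pairs only.

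Signs changed for genes that were not called with 16 libraries, Flt1 aside. With the replicate block these were Krt19 (0.73), Cd274 (-0.16), Tgfb1 (0.39), P4ha1 (0.19), Arg1 (1.52), Krt8 (0.19) and Cdh2 (0.12). With the acinar covariate they were Agtr1a (-0.057), Krt19 (0.28), Pecam1 (-0.22), Tgfb1 (0.86), Slc2a1 (0.50), Egln3 (0.74), P4ha1 (0.69), Arg1 (0.59), Krt8 (0.19), Has1 (0.077) and Cdh2 (0.64). Cpa1 turned to -1.17 without the group covariate, -0.44 without columns A1 to A3 and -0.35 as a slope, where Tgfb1 was 0.011. Leaving out 1 library moved Cd274 between -0.035 (IGEL replicate 2) and 0.13 (PBS replicate 6), with a negative value also without PBS replicate 3, IGEL replicate 1 or IGEL replicate 6. Without PBS replicate 5 and with the acinar covariate Flt1 was 0.33, Lcn2 -0.45, Cpa1 -0.20, Cd274 -0.061, Tgfb1 0.058, P4ha1 0.16, Mx1 -0.55 and Mafa 0.16. Read counts without molecular identifiers are not independent molecules, and low genes such as Agtr1a rest on few counts.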

Other observations

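Further tissue lists were read in the same 16 libraries. Lymphatic endothelial genes had a median log2 fold change of 1.73 over 5 genes, all positive, with 0 called by edgeR (3 higher and 0 lower at an unadjusted p under 0.05) and 3 higher by DESeq2. The median was 2.30 with 3 higher without PBS replicate 5, and 0.94 without columns A1 to A3. Schwann cell and nerve genes had a median of 0.82 over 4 tested genes, led by Ngfr, a neurotrophin receptor, with 0.694, 3.39 and 6.52 CPM against 0.099, 0.737 and 1.86 CPM (2.17 ± 0.59, adjusted p = 0.0731). Without PBS replicate 5, 3 of the 4 were higher (Ngfr at 2.39, adjusted p = 0.0113), and the list's median was 0.16 without columns A1 to A3 and 0.49 without both. The mesothelial transcription factor Wt1 was higher (1.5 ± 0.36, adjusted p = 0.0489), the 1 call of 4 tested genes of its list, whose median was 0.71 with 16 libraries and -0.21 without columns A1 to A3. Skeletal muscle and adipocyte genes gave 0 calls of 6 and 3 by edgeR and DESeq2, with 0 at an unadjusted p under 0.05 by edgeR.

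Of 9 regulators of mesenchymal transition edgeR and DESeq2 called 0, the median was -0.14, and edgeR gave 0 at an unadjusted p under 0.05. Cdh2, the adhesion protein N-cadherin, had 24.6, 57.4 and 68.0 CPM in collagen-rich libraries and 8.71, 89.3 and 97.6 CPM in collagen-poor ones, the lowest being PBS replicate 5 (-0.51 ± 0.35, adjusted p = 0.494). Without that library 4 of the 9 were lower and 0 higher, Cdh2 among them (-0.70, adjusted p = 0.0105), and without columns A1 to A3 the median was 0.15. All 13 mitochondrially encoded genes had a negative log2 fold change (median -0.24, -0.12 without PBS replicate 5 and -0.48 without columns A1 to A3) with 0 calls by either tool and 0 at an unadjusted p under 0.05.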
